A study of Homo sapiens with 8 samples.

Results

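The genes described here are 9 that T cells use to leave and enter tissues. They are the chemokine receptors CXCR4, CCR7 and CCR9, the sphingosine 1-phosphate receptor S1PR1, the selectin ligand SELPLG, the integrin subunits ITGA4, ITGAL and ITGB1, and KLF2, a transcription factor that acts on several of the others. They were chosen by gene symbol, with earlier results of these data known, and they are 9 of the 64252 genes in each count table. RNA sequencing of 2 T-cell acute lymphoblastic leukemia (T-ALL) lines asked how gene expression changes when LDB1 is knocked down. LDB1 is an adaptor protein that does not bind DNA itself and joins transcription factors of the LIM-domain family, GATA and bHLH proteins into complexes that bring enhancers to promoters.

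The lines were 6T-CEM, derived from the CCRF-CEM line, and J.gamma1, derived from the Jurkat line. In each line, one group carried a control short hairpin RNA (sh-NC, shControl in the labels) and the other a hairpin against LDB1 (sh-LDB1, shLDB1 in the labels), with 2 libraries per group and 8 libraries in all. Per the study's methods, hairpins were delivered in the pLKO.1 lentiviral vector and infected cells were selected with puromycin, so the controls carry a vector as well. Which LDB1 hairpin the sequenced cells carried is not given in the sources used here. Nothing says that the libraries of a group came from separate cultures, so the p-values measure the spread between these libraries only. Both lines are cultured leukemia cells without vessel wall, stroma or flow, and messenger RNA was measured, not receptor protein on the surface.

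A T cell in blood is first slowed by selectins and their ligands, then reads chemokines on the vessel wall through G protein-coupled receptors, and then arrests through integrins that the receptor signal has switched on. CXCR4, the receptor for CXCL12, holds cells in marrow and thymus. CCR7 directs cells into lymph nodes along CCL19 and CCL21, and CCR9 directs thymocytes and gut T cells along CCL25. S1PR1 does the reverse of CCR7 and lets cells leave lymphoid tissue towards the sphingosine 1-phosphate of blood and lymph. KLF2 is a zinc finger factor known in resting T cells for keeping S1PR1 on, and with it the route out of lymphoid tissue.

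The total count per library lay between 26160492 and 30604977. Levels are in CPM, counts relative to the library total on the usual scale, with totals scaled over all 8 libraries by TMM, a normalization that makes libraries of different make-up comparable. LDB1 stood at 107 and 111 CPM in 6T-CEM sh-NC against 37.0 and 35.0 in sh-LDB1, and at 60.2 and 58.8 CPM in J.gamma1 sh-NC against 33.2 and 30.8 in sh-LDB1. LDB1 RNA was thus down to 33.1% of its control in 6T-CEM and to 54.0% of it in J.gamma1, and no library went against its label. All 13 T-cell markers looked up had counts in both libraries of every group. Their summed level moved with the knockdown, with 2902 and 3003 CPM in the sh-NC libraries against 3637 and 3725 in the sh-LDB1 libraries of 6T-CEM, and 3026 and 3112 CPM against 3780 and 3852 for J.gamma1. The part of this shift in the results was not tested. Of the markers of other cells, the 6 B-cell markers summed to at most 79.2 CPM, the 6 myeloid markers to at most 21.6 CPM, the 6 epithelial or fibroblast markers to at most 12.2 CPM and the 6 erythroid and megakaryocyte markers to at most 3.88 CPM. In bulk RNA, fewer cells that express a gene and less RNA per cell cannot be told apart.

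Levels of different genes are compared per length, as RPKM, the CPM divided by the kilobases of exon of the gene. CXCR4 was the highest of the 9 genes in all 4 groups, with means (± SD, n = 2) of 63.5 ± 0.78 RPKM for 6T-CEM sh-NC and 130.9 ± 4.44 RPKM for J.gamma1 sh-NC. CCR9 was the lowest in all 4 groups, with at most 0.351 RPKM in any library. In 6T-CEM sh-NC the order below CXCR4 was ITGA4 (38.3 RPKM), SELPLG (15.4), ITGB1 (11.2), CCR7 (10.3), S1PR1 (6.65), ITGAL (5.09) and KLF2 (0.474), and no neighbours in that order overlapped. In J.gamma1 sh-NC the order was ITGA4 (27.7 RPKM), SELPLG (24.1), ITGB1 (19.4), ITGAL (7.37), KLF2 (7.01), S1PR1 (3.53) and CCR7 (1.56), again without overlap between neighbours. The lines thus differed in which of the less abundant genes were higher. With all exons as the length, CCR7 stood above S1PR1 and KLF2 in 6T-CEM and below both in J.gamma1. With the longest transcript as the length, CCR7 stood below S1PR1 in both lines, and above KLF2 in 6T-CEM only.

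With the knockdown this order changed around ITGA4. In J.gamma1 sh-LDB1, ITGA4 stood below SELPLG, ITGB1 and ITGAL, at 11.8 ± 0.241 RPKM against 12.3 ± 0.384 for ITGAL, and in 6T-CEM sh-LDB1 its 2 libraries overlapped those of SELPLG (19.7 against 19.5 RPKM). CCR7 and S1PR1 overlapped in J.gamma1 sh-LDB1 (1.78 against 1.57 RPKM). The order depends on the length used. With the longest transcript in place of all exons, ITGB1 stood above SELPLG in every group, S1PR1 stood above CCR7 in every group, ITGA4 stood above ITGAL in J.gamma1 sh-LDB1, and 33 to 34 of the 36 pairs of genes kept their order.

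**Figure D1:**
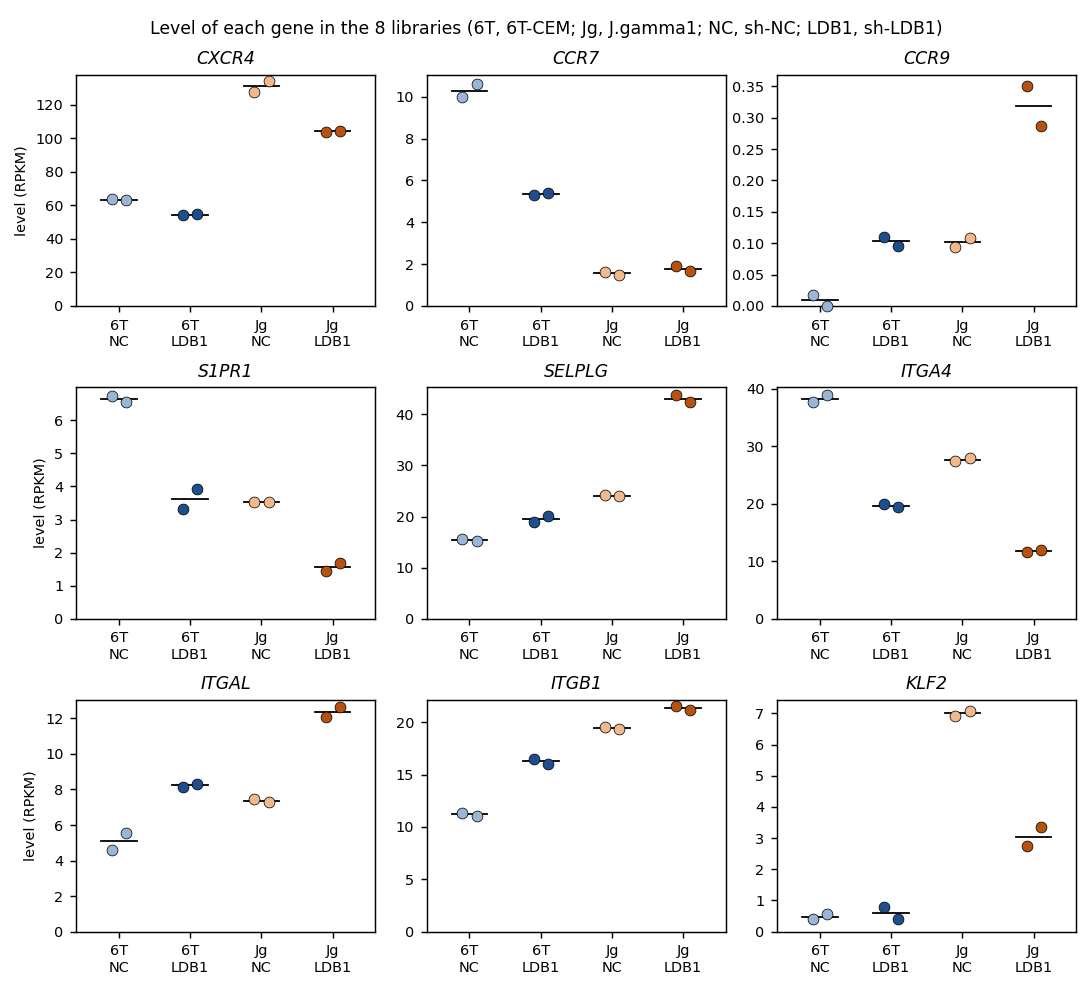
Level of each of the 9 genes in RPKM (vertical axis, linear, from 0) in the 8 libraries; each point is a library and each bar the mean of the 2 libraries of a group. ITGA4 and S1PR1 are lower in sh-LDB1 than in sh-NC in both lines, CCR7 in 6T-CEM only, and KLF2 is near 0.5 RPKM in 6T-CEM and at 7.01 RPKM in J.gamma1 sh-NC.

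Under sh-NC all 9 genes differed between the lines at an adjusted p under 0.05, where 65.7% of the 18552 genes tested did so. Each p-value comes from the quasi-likelihood test of edgeR, and Benjamini-Hochberg adjustment ran over all genes tested. The line and anything else that differed between the tables cannot be told apart. KLF2 was 14.7-fold higher in J.gamma1 (log2 difference 3.88 ± 0.27 SE, adjusted p = 1.17e-07), CXCR4 2.06-fold, ITGB1 1.73-fold, SELPLG 1.56-fold and ITGAL 1.45-fold. CCR7 was lower in J.gamma1, at 15.2% of its 6T-CEM level (log2 difference -2.72 ± 0.14), as were S1PR1 at 53.1% and ITGA4 at 72.3%. CCR9 was higher in J.gamma1, with 13 and 15 counts against 2 and 0 in 6T-CEM.

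CCR9 met the filter on low counts in 6T-CEM through its sh-LDB1 libraries alone, so it could enter that test only with a difference. It is left out of the counts and medians over these genes in this paragraph. Of the other 8 genes, 7 passed an adjusted p under 0.05 in each line after knockdown, 3 higher and 4 lower. Of the 16059 genes tested in 6T-CEM, 31.3% passed (15.1% higher and 16.2% lower), and of the 17215 genes tested in J.gamma1, 51.5% passed (25.0% higher and 26.5% lower). The median change over all genes tested was 0.00 in both lines on the log2 scale, and the median over the 8 genes was 0.06 for 6T-CEM and -0.09 for J.gamma1. CXCR4, S1PR1 and ITGA4 fell in both lines. SELPLG, ITGAL and ITGB1 rose in both lines. CCR7 fell in 6T-CEM only and KLF2 fell in J.gamma1 only, and for both genes the difference between the lines passed its own test. With a log2 fold change beyond 1 also required, none of the 8 remained in 6T-CEM, where 5.13% of genes tested did, and S1PR1, ITGA4 and KLF2 remained in J.gamma1, where 13.9% did.

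**Figure D2:**
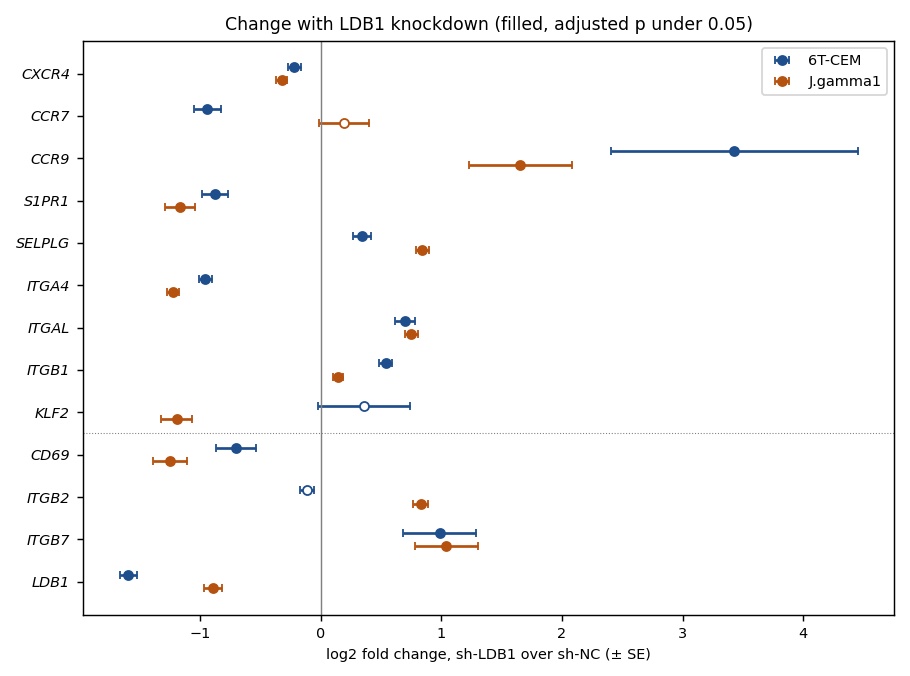
Log2 fold change of sh-LDB1 over sh-NC (horizontal axis) with its SE for the 9 genes and, below the dotted line, CD69, the partner subunits ITGB2 and ITGB7, and LDB1; filled points have an adjusted p under 0.05. CXCR4, S1PR1, ITGA4 and CD69 lie left of 0 in both lines, and the fitted value of CCR9 in 6T-CEM rests on 2 counts in sh-NC.

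CXCR4 is at chr2:136114349-136119177 on the minus strand (GRCh38, as all positions here). It stood at 186 and 183 CPM in 6T-CEM sh-NC against 158 and 158 in sh-LDB1, and at 371 and 389 CPM in J.gamma1 sh-NC against 301 and 303 in sh-LDB1. The sh-LDB1 libraries were below the sh-NC libraries in both lines, by a small margin. The log2 fold change was -0.22 ± 0.06 in 6T-CEM (adjusted p = 7.68e-03) and -0.32 ± 0.04 in J.gamma1 (adjusted p = 1.26e-04), or 86.0% and 79.9% of the control. The difference between the lines was -0.11 ± 0.06 (adjusted p = 0.239). The call in 6T-CEM was lost without sh-NC replicate 1 (adjusted p = 0.0625).

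CCR7, at chr17:40553769-40565472, was the one of these 3 chemokine receptors whose effect differed between the lines by its own test. It stood at 25.0 and 26.6 CPM in 6T-CEM sh-NC and at 13.3 and 13.6 in sh-LDB1, a fall to 52.1% (log2 change -0.94 ± 0.11, adjusted p = 1.95e-05). In J.gamma1 it stood at 4.10 and 3.74 CPM in sh-NC and at 4.79 and 4.14 in sh-LDB1. The groups did not overlap in J.gamma1 either, with sh-LDB1 a little higher, but the change did not pass the test (0.19 ± 0.21, adjusted p = 0.471). The effect in J.gamma1 minus that in 6T-CEM was 1.13 ± 0.20 (adjusted p = 1.44e-03). Of all genes, 24.4% passed this test of the difference between the lines, as did 5 of the 9 genes, and CCR9 was not among those 5.

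CCR9, at chr3:45884425-45903174, was barely expressed. It had 2 and 0 counts in 6T-CEM sh-NC, 14 and 12 in 6T-CEM sh-LDB1, 13 and 15 in J.gamma1 sh-NC and 43 and 37 in J.gamma1 sh-LDB1. The knockdown libraries were the higher ones in both lines. The ratio of summed counts over library sizes was 11.9 in 6T-CEM (95% exact Poisson interval 2.98 to 103.6) and 3.15 in J.gamma1 (2.02 to 5.03). These intervals leave out the spread between libraries and cover counting error only. They also take the values as plain read counts, and how coverage became counts is not given. In J.gamma1, where both groups met the filter on low counts, the change passed the test (adjusted p = 7.50e-03). In 6T-CEM no weight is given to its adjusted p (0.0190), since the gene was tested there only through the group in which it was higher, and it had no call without that filter (0.0832), without sh-NC replicate 2 (0.180) or without sh-LDB1 replicate 2 (0.110). The call in J.gamma1 was lost with DESeq2 (0.0648) and without sh-LDB1 replicate 1 (0.0647). CCR9 shares 23 exon bases with LZTFL1 on the opposite strand, which had 1557 to 2050 counts, and whether the counting used strand is not stated.

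S1PR1, at chr1:101236865-101243713 on the plus strand, fell in both lines. It stood at 35.1 and 34.3 CPM in 6T-CEM sh-NC against 17.3 and 20.4 in sh-LDB1, and at 18.4 and 18.5 CPM in J.gamma1 sh-NC against 7.61 and 8.76 in sh-LDB1. The groups were far apart in both lines compared with the spread within them. The log2 fold change was -0.88 ± 0.11 in 6T-CEM (adjusted p = 1.80e-05) and -1.17 ± 0.13 in J.gamma1 (adjusted p = 2.36e-05), leaving 54.5% and 44.6%. The difference between the lines was -0.29 ± 0.16 (adjusted p = 0.232). CD69, whose protein binds S1PR1 and removes it from the surface, fell alongside it, by 0.70 ± 0.17 on the log2 scale in 6T-CEM (adjusted p = 5.10e-03) and by 1.25 ± 0.14 in J.gamma1 (adjusted p = 3.24e-05). The call for CD69 in 6T-CEM was lost without sh-NC replicate 2 (0.0618) and without sh-LDB1 replicate 2 (0.0592).

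Promoters were read because S1PR1 is known as a KLF2 target and KLF factors bind the letters CACCC. RefSeq promoter windows (GRCh38.p14, 250 bases before to 50 after a start) were found for CXCR4, CCR9, S1PR1, ITGA4, ITGB1 and KLF2. The S1PR1 window holds the letters once on each strand, 142 and 120 bases before the start, and ITGA4, the other gene that fell strongly in both lines, holds them 22 bases before and 13 bases after its start. These stretches are shown 5′ to 3′ on the strand of the gene, with CACCC or its reverse complement GGGTG in capitals.
S1PR1, chr1:101236865-101236893, plus strand: tcctgaagaaacCACCCagccttggcgcg
S1PR1, chr1:101236887-101236915, plus strand: tggcgcggcgctGGGTGacttcgcgtagc
ITGA4, chr2:181457352-181457380, plus strand: cgcccgggacccCACCCagcggcccgtac
ITGA4, chr2:181457387-181457415, plus strand: aagcagcgcgagCACCCgaagctcccggc
All 4 stretches lie within the gene as GENCODE places it, since the RefSeq start used for the window is farther downstream. CACCC on either strand is present in 59.9% of all 35116 promoter windows, so its presence does not set these genes apart. It was also found in windows of CXCR4, CCR9 and ITGB1 and not in the KLF2 window. The GATA letters AGATAA and TGATAA, found in 16.3% of windows on either strand, were in no window of these 6 genes. The E-box letters CAGCTG and CAGATG, found in 29.8%, were in the S1PR1 window once and in windows of CXCR4, CCR9 and ITGB1, and the ETS letters CCGGAA, found in 17.2%, were in an ITGB1 window.

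SELPLG, at chr12:108621895-108633894, encodes PSGL-1, the main ligand of P-selectin on leukocytes. It stood at 43.8 and 42.8 CPM in 6T-CEM sh-NC and at 53.3 and 56.3 in sh-LDB1, and at 68.1 and 67.4 CPM in J.gamma1 sh-NC and at 123 and 119 in sh-LDB1. Knockdown libraries were higher in both lines, and those of J.gamma1 stood above all others. The rise was 1.27-fold in 6T-CEM (log2 change 0.34 ± 0.08, adjusted p = 3.30e-03) and 1.79-fold in J.gamma1 (0.84 ± 0.05, adjusted p = 4.58e-07), and it was larger in J.gamma1 (difference 0.50 ± 0.08, adjusted p = 9.72e-04).

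ITGA4, at chr2:181457202-181538940, is the alpha subunit that pairs with ITGB1 to bind VCAM1 and fibronectin, and with ITGB7 to bind MADCAM1 in gut vessels. It stood at 402 and 414 CPM in 6T-CEM sh-NC against 213 and 207 in sh-LDB1, and at 292 and 297 CPM in J.gamma1 sh-NC against 124 and 128 in sh-LDB1. Of the 9 genes it had the smallest adjusted p in each line. Its log2 fold change was -0.96 ± 0.05 in 6T-CEM (adjusted p = 8.98e-09) and -1.22 ± 0.05 in J.gamma1 (adjusted p = 1.19e-08), leaving 51.6% and 42.8%, and it fell further in J.gamma1 (difference -0.27 ± 0.06, adjusted p = 7.31e-03). ITGA4 shares 2813 exon bases with CERKL on the opposite strand, which had at most 35 counts in a library.

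ITGB1, at chr10:32887273-33005792, the beta subunit of that pair, was not lower. It stood at 166 and 161 CPM in 6T-CEM sh-NC against 240 and 234 in sh-LDB1, and at 284 and 281 CPM in J.gamma1 sh-NC against 314 and 308 in sh-LDB1. Knockdown libraries were higher in both lines, clearly so in 6T-CEM. It rose 1.46-fold in 6T-CEM (log2 change 0.54 ± 0.05, adjusted p = 3.28e-06) and 1.10-fold in J.gamma1 (0.14 ± 0.04, adjusted p = 0.0175), with a smaller effect in J.gamma1 (difference -0.40 ± 0.06, adjusted p = 5.91e-04). The call in J.gamma1 was lost with DESeq2 (0.0517) and without sh-NC replicate 1 (0.0570), sh-NC replicate 2 (0.0986) or sh-LDB1 replicate 1 (0.0772). ITGB7, the other partner of ITGA4, was low, at 1.22 to 1.96 CPM in sh-NC and 2.87 to 3.65 CPM in sh-LDB1 over both lines. Its log2 fold change was 0.99 ± 0.30 in 6T-CEM (adjusted p = 0.0222) and 1.04 ± 0.26 in J.gamma1 (adjusted p = 6.38e-03). It is uncertain, since it shares 1881 exon bases with ZNF740 on the opposite strand, which had 2422 to 3691 counts. DESeq2 did not call it in either line (0.125 and 0.0519), and the 6T-CEM call was also lost without a filter (0.0759), without sh-NC replicate 2 (0.172) and without sh-LDB1 replicate 1 (0.145) or 2 (0.0592).

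ITGAL, at chr16:30472658-30523567, the alpha subunit of LFA-1, had the smallest difference in effect between the lines among the 9 genes. It stood at 45.5 and 54.9 CPM in 6T-CEM sh-NC against 80.5 and 82.0 in sh-LDB1, and at 73.7 and 71.8 CPM in J.gamma1 sh-NC against 119 and 124 in sh-LDB1. The sh-LDB1 libraries were the higher ones in each line. The rise was 1.62-fold in 6T-CEM (log2 change 0.70 ± 0.09, adjusted p = 3.96e-05) and 1.68-fold in J.gamma1 (0.75 ± 0.05, adjusted p = 1.13e-06), and the difference between the lines was 0.05 ± 0.11 (adjusted p = 0.832). Its partner ITGB2 did not follow it in 6T-CEM, at 183 and 193 CPM in sh-NC against 169 and 178 in sh-LDB1 (-0.11 ± 0.06, adjusted p = 0.175). Both sh-LDB1 libraries lay a little below the sh-NC libraries there, but the change did not pass the test. In J.gamma1, ITGB2 stood at 71.4 and 67.4 CPM against 127 and 118 and rose 1.78-fold (0.83 ± 0.06, adjusted p = 1.24e-06). The difference between the lines was 0.94 ± 0.08 (adjusted p = 1.10e-05).

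KLF2, at chr19:16324826-16328685, was expressed at very different levels in the lines. It had 29 and 42 counts in 6T-CEM sh-NC and 65 and 34 in sh-LDB1, and 620 and 630 counts in J.gamma1 sh-NC and 216 and 279 in sh-LDB1. The groups overlapped in 6T-CEM, and in J.gamma1 both knockdown libraries stood far below the controls. In CPM these were 1.12 and 1.56 against 2.23 and 1.19 in 6T-CEM, and 19.5 and 20.0 against 7.72 and 9.47 in J.gamma1. KLF2 fell to 43.7% in J.gamma1 (log2 fold change -1.19 ± 0.13, adjusted p = 2.52e-05). In 6T-CEM the log2 fold change was 0.36 ± 0.38 (adjusted p = 0.528), and leaving out single libraries moved it between -0.16 and 0.73. The difference between the lines was -1.55 ± 0.38 (adjusted p = 0.0103), which was no longer called without 6T-CEM sh-NC replicate 1 (0.0520) or 6T-CEM sh-LDB1 replicate 1 (0.0614). S1PR1, a known KLF2 target, fell in both lines, in 6T-CEM with KLF2 at 1.12 to 2.23 CPM. Any part of KLF2 in the fall of S1PR1 was not tested.

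**Figure D3:**
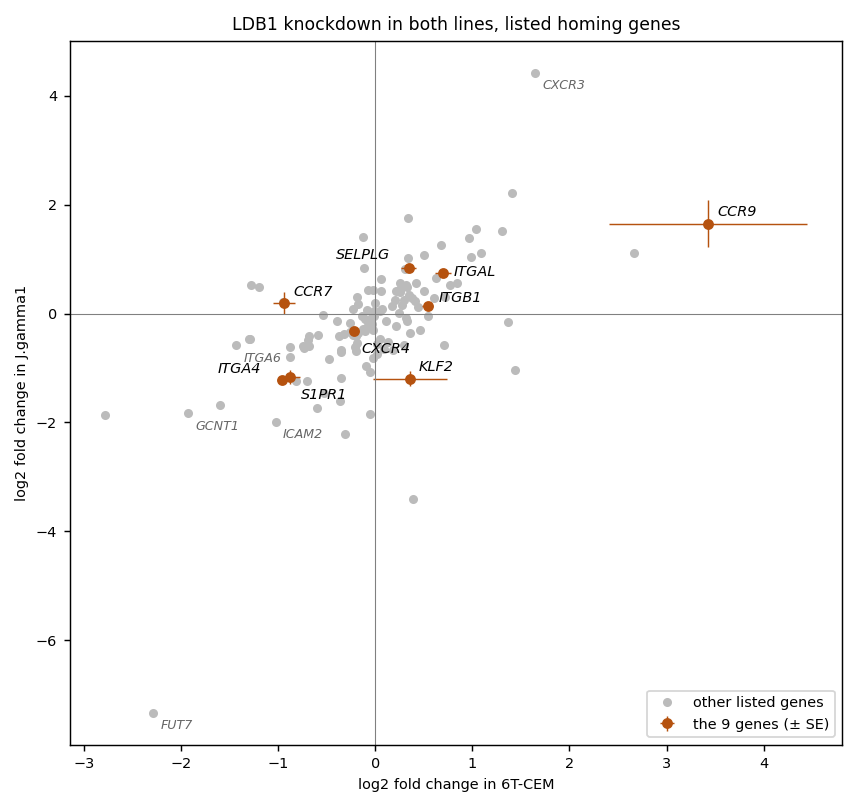
Log2 fold change after knockdown in 6T-CEM (horizontal axis) and in J.gamma1 (vertical axis) for the 131 genes of the lists below that were tested in both lines, with the 9 genes and their SE in orange. CXCR4, S1PR1 and ITGA4 lie low on both axes, CCR7 and KLF2 lie low on one axis each, and FUT7, the lowest point, named after its values were seen, was at 0 counts in the J.gamma1 sh-LDB1 libraries, so that its fitted value is not a size.

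The other genes of these pathways are given by list, and no list was tested as a set. Over all genes tested, 31.3% passed in 6T-CEM (15.1% higher, 16.2% lower) and 51.5% in J.gamma1 (25.0% higher, 26.5% lower). Counts of a list near these shares are not results about that list. The list counts include genes that, like CCR9 in 6T-CEM, reached the cutoff of the filter on low counts in both libraries of one group only. These were 10 of the 137 listed genes tested in 6T-CEM, with 6 called, among them CCR8, CXCR6, COL1A1 and FUT7, and 14 of the 151 tested in J.gamma1, with 9 called, among them CXCR3, CX3CR1, ITGA2B, FUT7 and MEF2B. For some of them, such as CXCR3 in J.gamma1, the other group also had a library at the cutoff, but not enough to meet the filter. For all of these genes the counts are a description. Among 22 chemokine receptors, 10 were tested in 6T-CEM, of which 3 rose and 5 fell (median log2 fold change 0.14), and 13 in J.gamma1, of which 5 rose and 3 fell (median 0.49). CXCR3, a receptor of effector T cells, had 27 and 27 counts in 6T-CEM sh-NC against 87 and 97 in sh-LDB1, and 6 and 12 in J.gamma1 sh-NC against 181 and 173 in sh-LDB1. It rose in 6T-CEM by 1.64 ± 0.30 on the log2 scale (adjusted p = 7.28e-04), and in J.gamma1 its sh-LDB1 libraries stood far above its sh-NC libraries. ACKR3, an atypical receptor that takes up CXCL12, fell in 6T-CEM from 144 and 161 to 51 and 85 counts (-1.28 ± 0.26, adjusted p = 1.86e-03). CXCR6 went from 9 and 20 to 71 and 85 counts in 6T-CEM, and CX3CR1 from 87 and 74 to 5 and 22 in J.gamma1. CCR8, a receptor of skin-homing and regulatory T cells, fell in J.gamma1 from 89 and 72 to 21 and 19 counts (-1.86 ± 0.33, adjusted p = 8.10e-04), and in 6T-CEM it had 22 and 11 against 0 and 5.

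Of 15 ligands and counter-receptors of the 9 genes, 7 were tested in each line, and in each 2 rose and 2 fell. CXCL12 had at most 5 counts in a library, CCL25 at most 6, and VCAM1 had none. ICAM2, which binds LFA-1, fell from 39.4 ± 0.935 to 19.3 ± 1.07 CPM in 6T-CEM (log2 change -1.03 ± 0.09, adjusted p = 1.42e-06) and from 86.1 ± 4.72 to 21.5 ± 3.80 CPM in J.gamma1 (-1.99 ± 0.11, adjusted p = 1.44e-06). ICAM3, another ligand of LFA-1, rose in both, by 0.31 ± 0.06 and 0.82 ± 0.09 on the log2 scale. ICAM2 shares exon bases with PRR29 and ICAM3 with a long noncoding RNA, each on the opposite strand, so their values are uncertain. SELP, the gene of P-selectin, which platelets and megakaryocytes express, fell in J.gamma1 from 77 and 120 to 9 and 16 counts. COL1A1, a collagen chain, rose in J.gamma1 from 137 and 131 to 251 and 273 counts (1.11 ± 0.17, adjusted p = 2.49e-04) and had 5 and 2 against 35 and 15 in 6T-CEM. It is one of the 6 epithelial or fibroblast markers, of which 3 were counted in both libraries of each J.gamma1 group. Their summed level in J.gamma1 was 6.15 to 6.43 CPM in sh-NC and 11.4 to 12.2 CPM in sh-LDB1. COL1A1 alone stood there at 4.32 and 4.15 CPM in sh-NC and at 8.97 and 9.27 CPM in sh-LDB1. The rise of the sum is thus mostly that of COL1A1. MIF, a cytokine that also binds CXCR4, had 4740 and 4394 counts in 6T-CEM sh-NC against 3967 and 4325 in sh-LDB1 (-0.26 ± 0.07, adjusted p = 0.0138), a call lost without a filter (0.0684), in the fit to all 8 libraries (0.0561), without sh-NC replicate 1 (0.162) and without sh-LDB1 replicate 1 (0.121).

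In the sphingosine 1-phosphate pathway, of 16 genes 12 were tested in 6T-CEM, of which 2 rose and 5 fell, and 15 in J.gamma1, of which 3 rose and 7 fell. S1PR3 fell in 6T-CEM like S1PR1, from 48.1 ± 4.05 to 24.8 ± 1.76 CPM (log2 fold change -0.95 ± 0.09, adjusted p = 2.96e-06). In J.gamma1 S1PR3 stood at 68.2 ± 0.171 CPM in sh-NC and 78.9 ± 7.04 in sh-LDB1 (0.22 ± 0.07, adjusted p = 0.0227), a call lost with DESeq2 (0.0930), without a filter (0.0639), in the fit to all 8 libraries (0.0571) and without sh-NC replicate 1 (0.0549), sh-NC replicate 2 (0.0546) or sh-LDB1 replicate 2 (0.205). The difference between the lines was 1.16 ± 0.12 (adjusted p = 3.85e-05). S1PR5 rose in 6T-CEM from 68 and 72 to 187 and 207 counts. PLPP1, which dephosphorylates lipid phosphates outside the cell, fell in J.gamma1 (-2.22 ± 0.14, adjusted p = 4.16e-07), and SGPP2, a phosphatase of sphingosine 1-phosphate, fell there from 308 and 280 to 78 and 78 counts. PLPP1 shares 481 exon bases with MTREX on the opposite strand, which had 3018 to 4300 counts, and is uncertain.

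Among 18 genes of selectin ligands and of their glycosylation and sulfation, 17 were tested in each line. In 6T-CEM 4 rose and 4 fell, and in J.gamma1 3 rose and 8 fell. GCNT1, which builds the branched O-glycan that PSGL-1 needs to bind selectins, fell in both lines, from 250 and 165 to 56 and 63 counts in 6T-CEM (log2 change -1.93 ± 0.25, adjusted p = 4.66e-05) and from 669 and 694 to 158 and 188 in J.gamma1 (-1.83 ± 0.13, adjusted p = 8.33e-07). SELPLG was therefore higher in the same libraries in which GCNT1 was lower. C1GALT1C1, the chaperone of the enzyme that extends the first sugar of these O-glycans, rose in 6T-CEM from 351 and 357 to 651 and 617 counts (0.72 ± 0.12, adjusted p = 3.05e-04). In J.gamma1 its change was 0.30 ± 0.11 (adjusted p = 0.0413), a call lost with DESeq2 (0.221) and without a filter (0.0733). This call did not always hold on leaving out single libraries, where the change lay between 0.22 and 0.39. TPST1, which sulfates tyrosines of PSGL-1, fell in J.gamma1 from 514 and 514 to 269 and 257 counts (-0.82 ± 0.13, adjusted p = 2.80e-04). PODXL fell in 6T-CEM by 1.29 ± 0.20 on the log2 scale (adjusted p = 2.43e-04). In J.gamma1 its change was -0.47 ± 0.15 (adjusted p = 0.0273), a call lost without a filter (0.0697) and in the fit to all 8 libraries (0.0585). On leaving out single libraries the change lay between -0.73 and -0.25, and the call did not always hold.

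Of 18 integrin alpha subunits, 11 were tested in 6T-CEM, of which 2 rose and 2 fell, and 12 in J.gamma1, of which 1 rose and 5 fell. ITGAL was the only one of the 12 tested in J.gamma1 that rose. ITGA6, a laminin receptor subunit, fell in both lines, from 109 ± 6.45 to 40.1 ± 1.09 CPM in 6T-CEM (log2 change -1.43 ± 0.07, adjusted p = 3.98e-09) and from 30.2 ± 3.17 to 20.1 ± 0.775 CPM in J.gamma1 (-0.58 ± 0.10, adjusted p = 5.45e-04). ITGA2B, a platelet integrin subunit, went from 85 and 93 to 4 and 20 counts in J.gamma1, and ITGA1, which binds collagen, fell there from 184 and 222 to 59 and 61. Of 8 beta subunits, 5 were tested in 6T-CEM (2 rose, 0 fell) and 7 in J.gamma1 (3 rose, 1 fell). The 1 that fell in J.gamma1 was ITGB3, the partner of ITGA2B, from 236 and 146 to 58 and 68 counts. ITGA2B is also one of the 6 erythroid and megakaryocyte markers. Their summed level was 3.81 to 3.88 CPM in J.gamma1 sh-NC and 0.929 to 1.46 CPM in sh-LDB1. In each of these groups 3 of the 6 were at 0 in both libraries. ITGA2B alone stood at 2.68 and 2.95 CPM in sh-NC and at 0.143 and 0.679 CPM in sh-LDB1. The fall of the sum is thus mostly that of ITGA2B and is no separate observation. The part of the marker sum in the falls of ITGB3 and SELP was not tested.

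Of 27 genes that switch integrins on or off, 25 were tested in 6T-CEM, of which 6 rose and 6 fell, and 26 in J.gamma1, of which 10 rose and 12 fell. FERMT3, the kindlin of blood cells, rose by 0.34 ± 0.07 on the log2 scale in 6T-CEM (adjusted p = 1.32e-03) and by 1.03 ± 0.06 in J.gamma1 (adjusted p = 3.10e-07). RASGRP1, an exchange factor for RAS proteins, and the adaptor FYB1 fell in both lines, FYB1 by 0.87 ± 0.07 in 6T-CEM (adjusted p = 2.23e-07) and by 0.80 ± 0.06 in J.gamma1 (adjusted p = 2.13e-06). RAP1GAP2, which turns RAP1 off, fell as well, by 0.81 ± 0.06 and 1.24 ± 0.12. CYTH1, which binds the tail of ITGB2, fell in J.gamma1 (-1.07 ± 0.05, adjusted p = 4.02e-08), with 89.8 ± 1.46 and 86.5 ± 2.08 CPM in 6T-CEM.

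Of 25 genes that relay or end receptor signals, 24 were tested in 6T-CEM, of which 6 rose and 8 fell, and 23 in J.gamma1, of which 7 rose and 11 fell. GNG2, a G protein gamma subunit, fell from 197 ± 2.19 to 64.7 ± 0.144 CPM in 6T-CEM (log2 change -1.60 ± 0.06, adjusted p = 1.21e-10) and from 160 ± 8.70 to 49.6 ± 0.613 CPM in J.gamma1 (-1.68 ± 0.06, adjusted p = 7.26e-09). GRK3, a kinase that desensitizes receptors, fell by 0.60 ± 0.06 in 6T-CEM and by 1.73 ± 0.08 in J.gamma1. RGS14, which speeds the shut-off of Gi proteins, rose by 1.04 ± 0.15 and 1.56 ± 0.09. RGS16, of the same family, had 25 and 30 counts in 6T-CEM sh-NC against 57 and 60 in sh-LDB1 (0.97 ± 0.34, adjusted p = 0.0411), a call lost without any single library (0.0930 to 0.159), with DESeq2 (0.231), without a filter (0.0651), in the fit to all 8 libraries (0.125) and with a replicate block (0.0504).

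**Figure D4:**
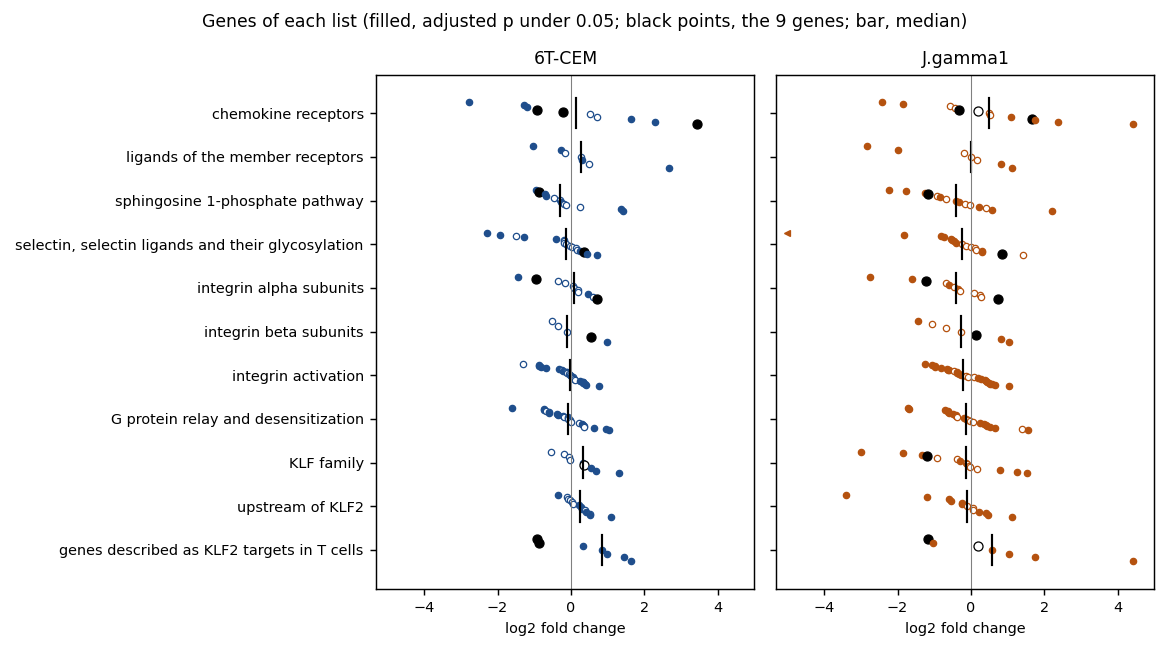
Log2 fold change after knockdown (horizontal axis) of the tested genes of each list in 6T-CEM (left) and J.gamma1 (right), with filled points at an adjusted p under 0.05, the 9 genes in black and the list's median as a bar; 1 point, drawn as a triangle, lies beyond the left edge. List medians range from -0.29 to 0.84 for 6T-CEM and from -0.42 to 0.56 for J.gamma1, with genes on both sides of 0 in every list.

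Of the 17 KLF factors, 9 were tested in 6T-CEM, of which 4 rose and 0 fell, and 15 in J.gamma1, of which 3 rose and 5 fell. KLF10 and KLF13, known as repressors at some promoters, rose in both lines, KLF10 by 1.31 ± 0.13 and 1.52 ± 0.08 and KLF13 by 0.67 ± 0.07 and 1.26 ± 0.05 on the log2 scale. KLF11, another repressor, fell in J.gamma1 from 390 and 307 to 126 and 126 counts (-1.32 ± 0.18, adjusted p = 1.03e-04) and had at most 2 counts in a 6T-CEM library. KLF6 rose in 6T-CEM (0.54 ± 0.08, adjusted p = 1.62e-04) and stood at 48.2 ± 0.349 and 46.3 ± 0.962 CPM in J.gamma1. Of 14 genes that act upstream of KLF2, 14 were tested in 6T-CEM (6 rose, 1 fell) and 13 in J.gamma1 (4 rose, 6 fell). FBXW7, a ubiquitin ligase subunit that marks KLF2 protein for degradation, rose from 54.0 ± 5.34 to 115 ± 0.932 CPM in 6T-CEM (log2 change 1.09 ± 0.08, adjusted p = 7.87e-08) and from 53.0 ± 0.17 to 114 ± 0.242 CPM in J.gamma1 (1.12 ± 0.05, adjusted p = 6.16e-08). MAP3K2, a kinase of the cascade that switches KLF2 on through MEF2 factors, rose in 6T-CEM by 0.41 ± 0.08 (adjusted p = 3.25e-03). That call was lost without sh-NC replicate 1, where the change was 0.36. MAP3K2 was called as higher in J.gamma1 too, but not in the fit to all 8 libraries (0.22 ± 0.08, adjusted p = 0.0538). Nor did the J.gamma1 call always hold on leaving out single libraries, where the change lay between 0.16 and 0.28. MEF2B went from 86 and 57 to 2 and 10 counts in J.gamma1. FOXO4 fell in J.gamma1 (-1.19 ± 0.11, adjusted p = 7.78e-06). It was called as lower in 6T-CEM too, but not with DESeq2 (-0.33 ± 0.16, adjusted p = 0.125) or without a filter (adjusted p = 0.0799). That call also did not always hold on leaving out single libraries, where the change lay between -0.44 and -0.26. MEF2C, at 138 ± 5.80 CPM in 6T-CEM sh-NC and at most 3 counts in a J.gamma1 library, rose in 6T-CEM (0.52 ± 0.06, adjusted p = 1.34e-05).

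Of 8 genes described as KLF2 targets in T cells, 7 were tested in each line. In 6T-CEM 5 rose and 2 fell, and in J.gamma1 4 rose, 2 fell and 1 did not pass. Those that fell included S1PR1 in both lines and CCR7 in 6T-CEM. Those counted as higher included CXCR3 and ITGB7 in both lines, and IL7R, the receptor for interleukin 7, which rose by 0.34 ± 0.07 in 6T-CEM (adjusted p = 2.35e-03) and by 1.75 ± 0.09 in J.gamma1 (adjusted p = 9.48e-08). The list had members on both sides in both lines, and the counts take no account of the direction described for each target. ITGB7 is uncertain, as given above. Any part of KLF2 in these changes was not tested.

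For each gene, those with the nearest profile over the 8 libraries were sought among 17124 genes with a symbol, by the root mean square difference of log2 CPM centred on each gene's own mean. PIAS3 was nearest to CXCR4 (0.019), DPYD to S1PR1 (0.055), MEGF9 to ITGB1 (0.049), STAT5B and DNAJC9 to ITGA4 (0.067 and 0.068), NCR3 to CCR7 (0.073), GSTM2 to ITGAL (0.082), HSF1 to SELPLG (0.085) and GPR153 to KLF2 (0.159). The next were ZFP1 for CXCR4 (0.055), CSE1L for S1PR1 (0.115), CORO1A for ITGB1 (0.059), TTC27 for CCR7 (0.127), FNDC3B for ITGAL (0.084), LRRC1 for SELPLG (0.086) and RRAS for KLF2 (0.197). For CCR9, JMJD7-PLA2G4B (0.106) and RBM33-DT (0.116) were nearest, but most of its values lie at or under the 0.5 CPM added before the logarithm. The 8 libraries share 4 groups, so nearness is mostly that of the group means.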

How the data were processed

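Per the labels and the study's methods, total RNA was extracted with TRIzol and libraries were made with the Illumina TruSeq RNA kit. The authors aligned the reads to hg38 with HISAT2 2.2.0, quantified genes with StringTie, and deposited 1 table of whole-number counts per gene for each line. How coverage became counts, the annotation release, strand use and the handling of reads that match several genes are not given in the sources used here. The gene lists and the 9 genes were chosen with earlier results of these data known.

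Each of the 64252 Ensembl identifiers per table was matched to a symbol where GENCODE release 44 or the gene table had one (56105 matched). No column was left unused. Counts were tested with edgeR 4.0.16 in R 4.3.3 (quasi-likelihood, robust, TMM, filterByExpr, Benjamini-Hochberg over all genes tested), per line on 4 libraries and, for the lines and their difference in effect, on all 8. Groups came from the labels. SE came from the log2 fold change and its F statistic. A call needed an adjusted p under 0.05 and, where stated, a log2 change beyond 1 as well. Replicates of a group differed by more than sampling noise (chi-square per degree of freedom 6.59 to 10.8). RPKM used the union of GENCODE exons and TMM-scaled totals. Besides the 9 genes, LDB1, ITGB2, ITGB7 and CD69, genes were named where they were among the 3 largest changes of a list in a line past that adjusted p and with at least 50 normalized counts in one group, or among the 2 nearest profiles of a gene. CXCL12, CCL25, VCAM1 and FUT7 were named after their values were seen. Alternatives were other scalings and filters, DESeq2 1.42.0, a replicate block, 1 fit to all libraries, counts summed by symbol and leaving out each library. The fits were also run on simulated counts with changes set in well-covered genes only, which does not cover genes at low counts. Some genes are not reported here and were left out of the lists and their counts.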

Additional observations from a re-analysis of the deposited data

Results flagged for a closer look

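The results listed here are those in which the effect of LDB1 knockdown differed between the lines by the test of the difference itself, by edgeR's quasi-likelihood test over 18552 genes with 8 libraries in the fit (adjusted p under 0.05). Genes with at most 3 counts in each library of a group are not listed, since the fitted difference is then no size. Of the named genes that passed, this left out SGPP2 (adjusted p = 2.32e-03), with 0 and 0 counts in 6T-CEM sh-NC and 7 and 2 in sh-LDB1. Values are the log2 fold change in J.gamma1 minus that in 6T-CEM. Among the 9 genes the difference was 1.13 for CCR7 and 0.50 for SELPLG, and -0.27 for ITGA4, -0.40 for ITGB1 and -1.55 for KLF2. CCR7 fell in 6T-CEM alone, KLF2 in J.gamma1 alone, and SELPLG, ITGA4 and ITGB1 moved the same way in both lines by different amounts.

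LDB1 itself differed by 0.70, with the larger fall in 6T-CEM. The effect was higher in J.gamma1 also for ITGB2 (0.94), CXCR3 (2.78), ACKR3 (1.80), ICAM3 (0.51), S1PR3 (1.16), ITGA6 (0.85), FERMT3 (0.69), RGS14 (0.52), KLF13 (0.58) and IL7R (1.41). It was lower in J.gamma1 for ICAM2 (-0.97), PLPP1 (-1.91), TPST1 (-0.80), ITGA1 (-1.25), RAP1GAP2 (-0.43), CYTH1 (-1.02), GRK3 (-1.13), KLF6 (-0.60), MEF2B (-3.80) and FOXO4 (-0.84). Among the genes named for a profile near one of the 9, it was TTC27 (0.92), DPYD (-0.46), HSF1 (0.35), LRRC1 (0.68), STAT5B (-0.44), DNAJC9 (-0.25), MEGF9 (-0.33), CORO1A (-0.45), GPR153 (-1.34) and RRAS (-1.72). Adjusted p-values over all these genes ran from 2.08e-06 to 0.0415. In 8 fits that each left out one library, the call was lost in 8 for TPST1 (highest adjusted p = 0.124), in 5 for ITGA1 (highest adjusted p = 0.111), RAP1GAP2 (0.117) and DNAJC9 (0.0874), in 4 for RGS14 (0.133) and ACKR3 (0.0662), in 3 for DPYD (0.0622) and MEGF9 (0.0708) and in 2 for KLF2 (0.0614). That of RGS14 was also lost with DESeq2 (adjusted p = 0.0731). That of TPST1 was also lost with DESeq2 (0.109), without a filter on low counts (0.0587) and with a replicate block (0.0627). MEF2B shares 1602 exon bases with the read-through gene BORCS8-MEF2B, and ITGA1 shares 499 with PELO, on the same strand, so both are uncertain. In J.gamma1 the low-count cutoff was reached in both libraries only of sh-LDB1 for CXCR3 and only of sh-NC for MEF2B. Their differences are thus given as a description.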

How the results depend on the processing

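No result changed direction while called, under any alternative run. The 824 genes of 6T-CEM that passed both the adjusted p and the fold threshold became 509 with DESeq2, and without the fold threshold it was 5023, against 8870 in place of 2386 in J.gamma1, by the construction of that alternative. The cause of the lower DESeq2 count was not tested. With both thresholds, leaving out single libraries gave 690 to 721 genes in 6T-CEM, 2062 to 2390 in J.gamma1 and, between the lines under sh-NC, 5702 to 6171 against 6003 with all libraries. For the difference between the lines, at the adjusted p alone, it gave 3574 to 4028 against 4524. Of the 8 genes without CCR9, edgeR called 7 in each line, where 31.3% (6T-CEM) and 51.5% (J.gamma1) of all genes tested passed. DESeq2 called 7 of these 8 in 6T-CEM and 6 in J.gamma1. In 6T-CEM the calls not held everywhere were those of CCR9 and CXCR4, in J.gamma1 those of CCR9 and ITGB1, and for the difference between the lines that of KLF2. The other named genes lost calls 26, 14, 37 and 6 times on leaving out single libraries (6T-CEM, J.gamma1, difference between the lines, and lines under sh-NC) and 15, 10, 4 and 2 times under the remaining alternatives, and gained calls in each of these comparisons but the first. With DESeq2 the adjusted p of CCR9 in 6T-CEM was not given. CCR9 was not tested in 6T-CEM at a filter of 1 CPM in 2 libraries. Same-numbered libraries share only a number (correlation of their deviations -0.025 in 6T-CEM and -0.016 in J.gamma1), and a fit with the replicate number as a block gave, at these thresholds, 801, 2240, 4587 and 5566 genes in the 4 comparisons and 8, 8, 5 and 9 of the 9 genes. With 2 libraries per group, changes of genes at the level of CCR9 or of KLF2 in 6T-CEM are bounded only widely.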
